A study of Rattus norvegicus with 6 samples.

Results

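Expression of 10 genes of the unfolded protein response was followed through the cell classes of rat ileum and compared between rats with severe acute pancreatitis and controls. The members were taken as a fixed list of stress sensors, transcription factors and their targets (Hspa5, Xbp1, Ddit3, Atf4, Ern1, Ern2, Herpud1, Dnajb9, Sdf2l1 and Trib3), matched by symbol among the 28282 gene symbols of the count tables, and all 10 were found. Single nuclei were sequenced from the ileum of wild-type male Sprague-Dawley rats aged 6 weeks, with 1 library per rat and Peyer's patches avoided at dissection. In the SAP group (3 rats), 3% sodium taurocholate was infused backwards into the pancreatic duct at 0.1 mL per 100 g of body weight. In the CON group (3 rats), the abdomen was opened and closed without infusion. Both groups were fasted after surgery and sampled at 24 h.

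The unfolded protein response links the load of proteins entering the endoplasmic reticulum (ER) to transcription. The sensors IRE1 and PERK and the membrane-bound factor ATF6 are held inactive by the chaperone BiP. Active IRE1 splices the mRNA of Xbp1, active PERK slows translation while favouring that of Atf4, and the resulting factors induce chaperones, degradation components and, under lasting stress, Ddit3 and Trib3. Goblet cells secrete large amounts of disulphide-bonded mucin, and IRE1 beta, the product of Ern2, is a form of the IRE1 sensor found in mucosal epithelia. Counts per gene do not separate the spliced from the unspliced Xbp1 mRNA, so the values below are total nuclear transcript and not pathway activity.

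Of 90461 barcodes, 40970 met the quality limits of the study (23920 CON and 17050 SAP nuclei), with 3189 to 9246 nuclei and 5549260 to 28771508 UMIs (unique molecular identifiers, each a captured transcript) per library. Barcodes are serial names that recur between libraries, so shared cells could not be looked for: 20692 names occurred in more than 1 library. The nuclei fell into 23 clusters, and 16 classes with at least 10 nuclei in every library were tested. Clusters were named from marker genes, and 11299 nuclei (27.6%) in 5 clusters stayed unnamed and are called by number. The goblet label was given from 12 goblet markers, all detected, so their level describes the class and does not test its name. Their summed level was 17300 to 37470 CPM (counts scaled to the total of the class in that library) in goblet-like nuclei against 2540 to 6139 in enterocyte-like nuclei. Both replicate 1 libraries stood apart. The summed level of 10 Paneth cell markers, 1 of them at 0, was 44010 CPM in CON replicate 1 and 46340 in SAP replicate 1 within goblet-like nuclei, against 2019 to 4096 in the other 4 libraries, and T-like nuclei showed the same split (34560 and 45410 against 1888 to 3164). For some members and classes, the SAP difference is also given without both replicate 1 libraries, while class levels include them. Paneth-like nuclei (521) were not tested, because CON replicate 2 held 9 of them.

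Promoters of 9 of the 10 members are listed by RefSeq on the GRCr8 build, and 4 are printed because they carry letters that ER stress factors are known to read. The capitals in the Hspa5 and Xbp1 promoters mark the ER stress response element, ERSE (CCAAT, any 9 bases, CCACG), bound by ATF6 and XBP1 with NF-Y. Those in the Herpud1 promoter mark first a C/EBP-ATF composite site (TGATG, any 1 base, AA, here on the opposite strand), of the kind ATF4 and CHOP bind, and then the ERSE-II element (ATTGG, any 1 base, CCACG). Those in the Trib3 promoter mark a C/EBP-ATF site on the opposite strand. Each run is the 250 bases before the annotated start of transcription on the strand of the gene: Hspa5 at chr3:38452766-38453015 (plus strand), Xbp1 at chr14:84604373-84604622 (plus strand), Herpud1 at chr19:10614708-10614957 (minus strand) and Trib3 at chr3:161275534-161275783 (minus strand).
Hspa5: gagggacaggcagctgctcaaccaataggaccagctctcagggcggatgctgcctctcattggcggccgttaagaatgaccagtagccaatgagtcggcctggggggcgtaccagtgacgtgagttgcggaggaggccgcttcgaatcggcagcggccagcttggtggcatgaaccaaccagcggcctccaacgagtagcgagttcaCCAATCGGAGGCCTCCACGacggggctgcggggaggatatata
Xbp1: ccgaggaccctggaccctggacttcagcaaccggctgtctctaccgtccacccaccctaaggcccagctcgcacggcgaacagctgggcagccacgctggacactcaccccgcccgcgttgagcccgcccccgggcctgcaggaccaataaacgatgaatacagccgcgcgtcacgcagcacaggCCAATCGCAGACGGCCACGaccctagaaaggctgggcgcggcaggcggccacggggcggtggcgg
Herpud1: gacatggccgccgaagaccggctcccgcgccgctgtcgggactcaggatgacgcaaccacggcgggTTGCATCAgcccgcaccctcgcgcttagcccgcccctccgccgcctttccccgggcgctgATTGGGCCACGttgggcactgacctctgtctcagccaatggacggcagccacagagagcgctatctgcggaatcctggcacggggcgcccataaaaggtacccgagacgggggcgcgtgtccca
Trib3: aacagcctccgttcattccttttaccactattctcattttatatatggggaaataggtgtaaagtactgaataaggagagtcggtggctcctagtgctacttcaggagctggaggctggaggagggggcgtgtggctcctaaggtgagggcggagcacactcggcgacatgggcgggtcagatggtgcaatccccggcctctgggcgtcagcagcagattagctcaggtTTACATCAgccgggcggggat

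ERSE lay 43 to 25 bases before the start in Hspa5 and 65 to 47 bases before it in Xbp1. Herpud1 held the C/EBP-ATF letters 184 to 177 bases and ERSE-II 124 to 114 bases before its start, and Trib3 held the C/EBP-ATF letters 21 to 14 bases before its start. The elements differ in how common they are: searched on both strands in windows of 300 bases, ERSE was in 22 of 33469 promoters (0.0657%), ERSE-II in 17 (0.0508%) and the C/EBP-ATF letters in 1332 (3.98%). Among 75 matched promoters of the wider response lists used below, ERSE was in 7 (Calr, Canx, Creld2, Derl3, Dnajc3, Ero1b and Hsp90b1), ERSE-II in 2 (Dnajb11 and Hyou1) and the C/EBP-ATF letters in 5 (Aars1, Chac1, Nars1, Nupr1 and Ppp1r15b). A match is a run of letters and not a measured binding site.

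Across classes, the sensor Ern2 had the sharpest distribution of the members. In goblet-like nuclei its level was 70.8, 77.3 and 116.2 CPM in CON and 79.9, 63.5 and 88.8 CPM in SAP, a mean of 82.7 ± 18.5 CPM (SD, n = 6 libraries). The next class was cluster 8 at 30.6 ± 16.7 CPM, and the range of goblet-like libraries lay wholly above it. Enterocyte-like nuclei held 7.99 ± 3.09 CPM, so that the goblet-like mean was 10.4 times the enterocyte-like mean and higher in 6 of 6 libraries. The remaining classes ran from 7.85 CPM in cluster 1 to 18.6 CPM in T-like nuclei, and their ranges overlapped from each class to the next.

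The low Ern2 level outside goblet-like nuclei was compared with the level of goblet markers in the same classes, since free RNA from broken cells is captured in every droplet. T-like nuclei held 23.2% ± 10.1 of the goblet-like Ern2 level and 21.7% ± 5.12 of the goblet-like level of the summed markers (SD, n = 6). In enterocyte-like nuclei these shares were 9.73% ± 3.48 and 20.4% ± 9.43, and in stem/TA-like nuclei (stem and transit-amplifying cells of the crypt) 9.92% ± 2.59 and 14.9% ± 4.15. Outside goblet-like nuclei, cluster 8 held the largest share of Ern2 (39.2% ± 25.9) beside 19.0% ± 5.96 of the markers, and there SAP replicate 1 had no Ern2 UMI. After thinning each nucleus to 1200 UMIs, 10.0% ± 2.23 of goblet-like nuclei had an Ern2 UMI, against 2.04% ± 0.648 in T-like nuclei, which should lack the gene, and 0.886% ± 0.292 in enterocyte-like nuclei. Before thinning these shares were 15%, 5.06% and 2.01%, at median depths of 1712, 1920 and 2000.5 UMIs.

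Ern1, which encodes the widely expressed sensor IRE1 alpha, followed another order. It was highest in cluster 8 (273 ± 57.7 CPM, n = 6 libraries), an unnamed epithelial cluster with Paneth and stem cell markers led by Gfra4, Kif19 and Samd5, and its range did not overlap that of the next class, cluster 1 (142 ± 26.6 CPM). Enterocyte-like nuclei had the lowest mean of the 16 classes, 88.2 ± 27.9 CPM, and lay below goblet-like nuclei (140.1 ± 32.7 CPM) and stem/TA-like nuclei (133 ± 29.4 CPM) in 6 of 6 libraries each. Enterocyte-like nuclei were also below cluster 1, an unnamed cluster whose closest marker match was the enterocyte, in 6 of 6 libraries. Many genes were low in enterocyte-like nuclei. Of genes with at least 60 UMIs over both classes, 30.2% lay below goblet-like and 39% below stem/TA-like nuclei in all 6 libraries. Thinned shares of nuclei with an Ern1 UMI were 27.5% ± 3.91 in cluster 8, 14.6% ± 2.79 in goblet-like and 9.73% ± 2.85 in enterocyte-like nuclei, with T-like nuclei at 14.7% ± 2.26.

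**Figure D1:**
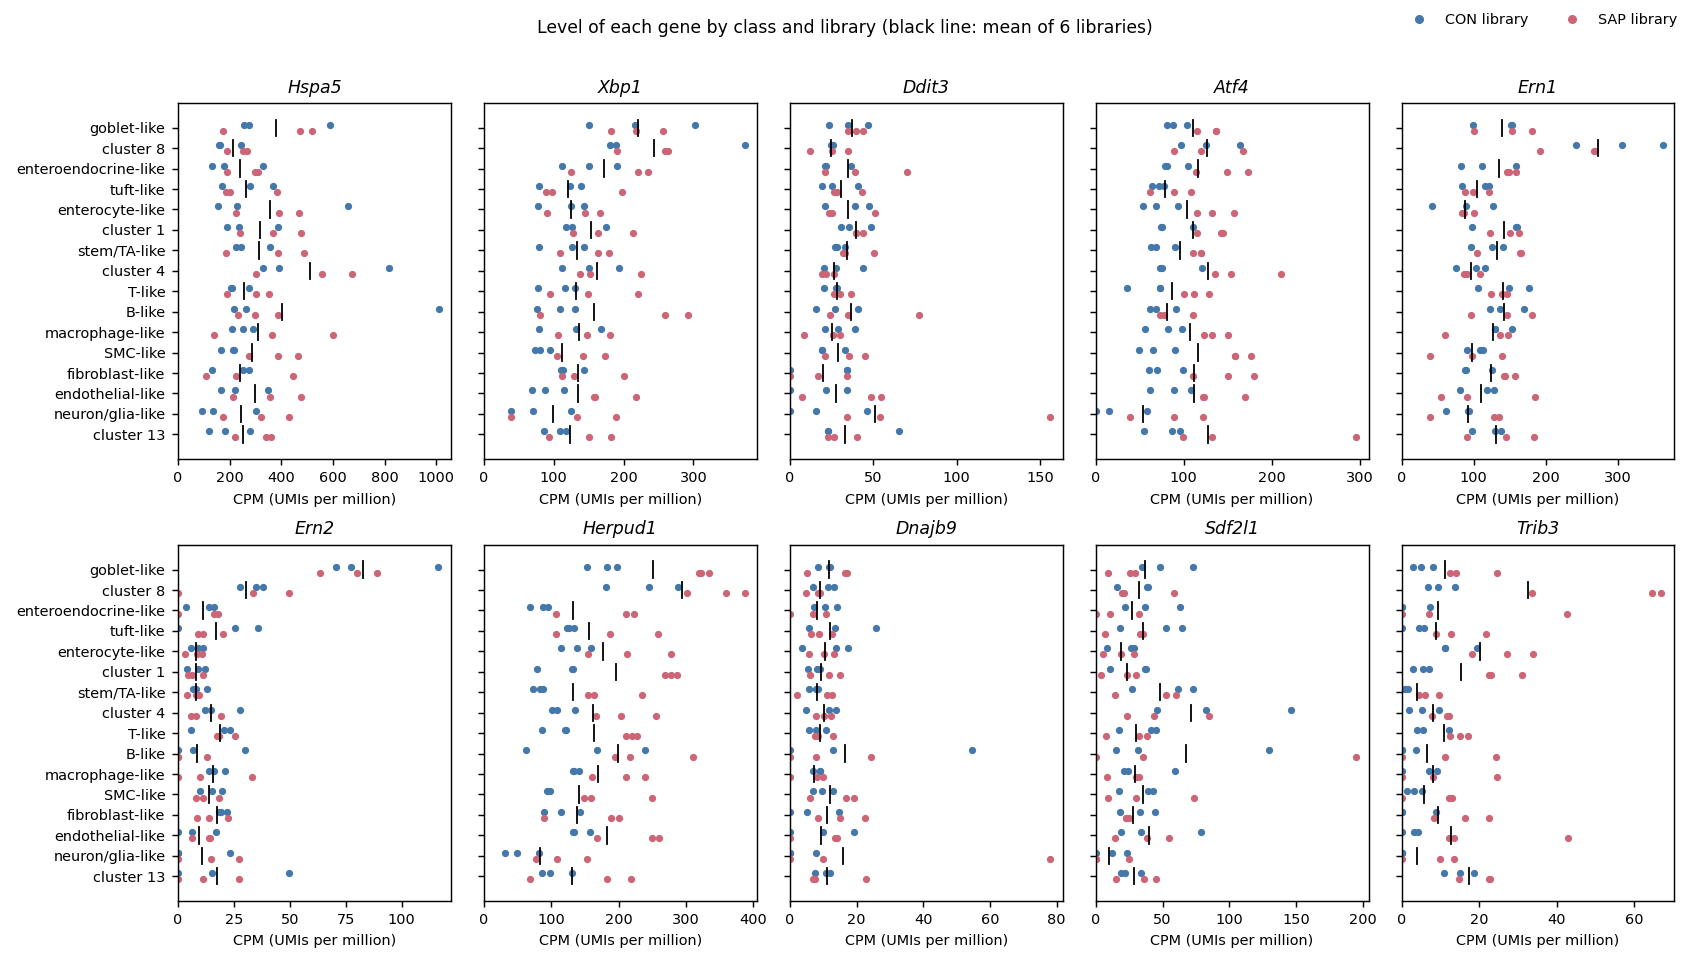
Level of each member in each of the 16 tested classes, in CPM, with 1 point per library (CON and SAP in separate colours) and the mean over 6 libraries. Ern2 stands apart in goblet-like nuclei (mean 82.7 CPM) and Ern1 in cluster 8 (mean 273 CPM), while Hspa5 overlaps between all neighbouring classes.

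Among the transcription factors, Xbp1 was highest in cluster 8 and goblet-like nuclei. Its mean was 243 ± 74.0 CPM in cluster 8 and 221 ± 53.5 CPM in goblet-like nuclei, and these ranges overlapped. Enteroendocrine-like nuclei came next (172 ± 50.7 CPM), below goblet-like nuclei in 5 of 6 libraries, while tuft-like nuclei (120.8 ± 43.5 CPM) lay near enterocyte-like nuclei. Goblet-like nuclei exceeded enterocyte-like nuclei (124.5 ± 34.2 CPM) in 6 of 6 libraries, by 0.84 ± 0.25 on the log2 scale, and stem/TA-like nuclei (133 ± 36.3 CPM) in 6 of 6 libraries, by 0.74 ± 0.27. The median of these log2 ratios over all genes with at least 60 UMIs over both classes was 0.311 and -0.143. Atf4, translated preferentially when PERK is active, had close means in these 3 classes: goblet-like nuclei held 110.4 ± 23.6 CPM, enterocyte-like nuclei 103.6 ± 38.8 CPM and stem/TA-like nuclei 95.3 ± 25.4 CPM, with goblet-like above stem/TA-like in 6 of 6 libraries but above enterocyte-like in 4. The log2 ratio of goblet-like to enterocyte-like Atf4 was 0.155, and 0.488 when only nuclei with a mitochondrial share of 1% or less were kept. Ddit3, which encodes the pro-apoptotic factor CHOP, ranged from 19.9 CPM in fibroblast-like nuclei to 51.1 CPM in the sparse neuron or glia class, and every class overlapped the next.

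The targets separated into those that were higher in goblet-like nuclei and those that were not. Herpud1, a component of the machinery that degrades misfolded ER proteins, was highest in cluster 8 (294 ± 75.1 CPM) and goblet-like nuclei (251 ± 82.0 CPM), and the goblet-like level exceeded the enterocyte-like level (176 ± 59.3 CPM) and the stem/TA-like level (133 ± 62.9 CPM) in 6 of 6 libraries each. Hspa5, which encodes BiP, was highest in cluster 4, an unnamed epithelial cluster with goblet, stem and TA markers (511.4 ± 207.7 CPM). It lay there above goblet-like nuclei (380.4 ± 167.5 CPM) and stem/TA-like nuclei (314 ± 114.5 CPM) in 6 of 6 libraries each, by 0.458 ± 0.225 and 0.681 ± 0.329 on the log2 scale, although the ranges of neighbouring classes overlapped. Paneth markers summed to 7508 to 80690 CPM in cluster 4, against 2019 to 46340 CPM in goblet-like nuclei. Of the 3017 nuclei of cluster 4, 1410 came from CON replicate 1 and 610 from SAP replicate 1. The part of Paneth transcripts in its Hspa5 level was not tested. Enterocyte-like nuclei held 355 ± 189 CPM, with goblet-like nuclei higher in 4 of 6 libraries. In both of these classes the highest Hspa5 levels came from the replicate 1 libraries that were rich in Paneth markers, and the part of free RNA in this was not tested. Thinned shares with an Hspa5 UMI were 33.0% in goblet-like and 26.1% in T-like nuclei.

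Trib3 and Sdf2l1 each had an order of their own. Trib3, a pseudokinase induced by ATF4 and CHOP, was higher in enterocyte-like nuclei (20.3 ± 8.999 CPM) than in goblet-like nuclei (11.3 ± 7.79 CPM) and higher in goblet-like than in stem/TA-like nuclei (3.94 ± 3.55 CPM), each in 6 of 6 libraries. Thinned shares of nuclei with a Trib3 UMI were 2.28% in enterocyte-like, 1.11% in goblet-like and 0.509% in stem/TA-like nuclei beside 1.20% in T-like nuclei, so the goblet-like share was no higher than that of a class outside the epithelium. Sdf2l1, part of an ER chaperone complex, was higher in stem/TA-like nuclei (48.0 ± 22.6 CPM) than in enterocyte-like nuclei (19.3 ± 10.3 CPM) in 6 of 6 libraries, by 1.31 ± 0.19 on the log2 scale read as stem/TA over enterocyte. Its highest mean was in cluster 4 (70.95 ± 44.0 CPM), and goblet-like nuclei (36.6 ± 21.8 CPM) lay above enterocyte-like nuclei in 5 of 6 libraries, with a ratio of means of 1.89. Dnajb9, the BiP co-chaperone ERdj4, was sparse throughout, with class means from 7.22 to 16.6 CPM that overlapped from each class to the next.

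Of the 10 members, 4 (Xbp1, Ern1, Ern2 and Herpud1) were higher in goblet-like than in enterocyte-like nuclei in all 6 libraries and 1 (Trib3) was lower in all 6. The same held for 30.2% and 10.9% of 13896 genes with at least 60 UMIs over both classes. The wider lists were uneven. Of 22 ER chaperones and folding enzymes, 15 (68.2%) were higher in goblet-like than in enterocyte-like nuclei in 6 of 6 libraries. Among them was Agr2, a disulphide isomerase of mucin assembly (1327 ± 1270 against 172 ± 108 CPM). In the list of other sensors, 5 of 11 (45.5%) were higher and 3 (27.3%) lower in all 6 libraries, and in the PERK-ATF4 list 11 of 23 (47.8%) were higher and 4 (17.4%) lower. The shares higher were 37.5% (6 of 16) for ER-associated degradation and 33.3% (6 of 18) for translocation and export, nearer to that of all genes. PERK itself, encoded by Eif2ak3, held 423 ± 85.1 CPM in goblet-like against 108 ± 38.4 CPM in enterocyte-like nuclei, a ratio of 3.91, and Creb3l1, a membrane-bound relative of ATF6, 272 ± 66.1 against 49.4 ± 11.8 CPM, a ratio of 5.51. Against stem/TA-like nuclei the picture differed. There, 5 of 21 chaperones (23.8%) were higher in goblet-like nuclei in all 6 libraries and 3 (14.3%) lower, beside 13.7% and 25.8% of 13890 genes. Of 23 PERK-ATF4 genes, 6 (26.1%) were higher and 7 (30.4%) lower. Enterocyte-like nuclei lay below stem/TA-like nuclei in all 6 libraries for 12 of 22 chaperones (54.5%) and above for 1, beside 39% and 12.6% of 14600 genes. These counts are a description, with no test.

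Profiles over the 16 class means placed Calr (calreticulin, r = 0.935), Tmem238 (0.896) and Tmem97 (0.854) nearest to Hspa5. Nearest to Xbp1 were Sgsm3 (0.922), Tmco3 (0.899) and Tmem183a (0.881), and those named for Ern2 were LOC120102494 (0.882) and Mia3 (0.868), which exports large cargo from the ER. Among the members, Xbp1 and Herpud1 were most alike (r = 0.799), followed by Atf4 and Sdf2l1 (0.784). These are Pearson correlations of log2 levels over classes that share the same 6 libraries.

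The comparison of SAP with CON asked whether pancreatitis was accompanied by a different level of these genes in each class. No member passed the test in any of the 16 classes (edgeR quasi-likelihood, Benjamini-Hochberg adjusted p below 0.05 over all genes of the class and a log2 fold change of 0.5 or more in either direction), where 0.0244% of all gene and class pairs were called. The calls depended on the tool: DESeq2 called Herpud1 in goblet-like nuclei, stem/TA-like nuclei and cluster 1, Trib3 in clusters 1 and 8, and Atf4 in smooth muscle-like (SMC-like) nuclei, all higher in SAP. At an unadjusted edgeR p under 0.05, Herpud1 was higher in SAP in 11 of 15 classes in which it was measured well enough to test, Atf4 in 10 of 14 and Trib3 in 5 of 6, against 7.93% of all gene and class pairs in either direction. In stem/TA-like nuclei and cluster 8, Trib3 passed the filter on counts only through the SAP libraries. Its p there is not independent of that selection. In goblet-like nuclei most CON libraries lay below the limit of that filter and all SAP libraries above it, so the same holds there.

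In goblet-like nuclei, Herpud1 had the smallest p of the members. Its level was 182, 198 and 154 CPM in the CON libraries and 334, 323 and 319 CPM in the SAP libraries. Every SAP library lay above every CON library, and the SAP values were close together. The log2 fold change was 0.93 ± 0.20 (SE), with an edgeR adjusted p of 0.364, while DESeq2 gave 0.94 with an adjusted p of 0.0387.

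Trib3 was near the floor of detection in goblet-like nuclei of CON rats. Levels were 5.13, 3.02 and 8.08 CPM in CON against 14.1, 24.6 and 12.6 CPM in SAP, from 76 UMIs in all. The groups did not overlap (log2 fold change 1.68 ± 0.52, edgeR adjusted p = 0.380). Most CON libraries lay below the limit of the filter on counts and all SAP libraries above it. This Trib3 separation is therefore not independent of that selection. Atf4 was 88.1, 81.6 and 104.1 CPM in CON and 136, 115 and 137 CPM in SAP, again without overlap (0.56 ± 0.21, edgeR adjusted p = 0.433). Sdf2l1 ran the other way, with 72.7, 48.3 and 34.4 CPM in CON and 25.9, 9.07 and 29.1 CPM in SAP (-1.26 ± 0.45, edgeR adjusted p = 0.421). No other member had all SAP libraries below all CON libraries in a class where it was tested.

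The remaining members overlapped between groups in goblet-like nuclei. Hspa5 was 587, 274 and 255 CPM in CON and 519, 174 and 473 CPM in SAP (0.08 ± 0.49), and Xbp1 was 217, 302 and 150.5 CPM against 256, 218 and 182 CPM (0.04 ± 0.29). For both genes the sign of the fold change depended on single libraries. The SAP replicate 1 library carried the highest SAP value of both. Ern1 (0.17 ± 0.24), Ern2 (-0.13 ± 0.25), Ddit3 (0.23 ± 0.30) and Dnajb9 (0.32 ± 0.48) had fold changes within 1 SE of 0, and their adjusted p ranged from 0.833 to 0.901 by edgeR.

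In all, 4 of 10 members had an unadjusted p under 0.05 in goblet-like nuclei, against 9.78% of the 11494 genes tested, of which edgeR called 1 (0.0087%), edgeR with the replicate number as a block 9, and DESeq2 81 (0.705%). Herpud1, Trib3 and Atf4 were 3 members with all SAP libraries above all CON libraries, against 5.28% of genes, and Sdf2l1 was 1 with all below, against 9.11% of genes. The Trib3 separation and p are not independent of the filter on counts. Without both replicate 1 libraries, a comparison of 2 rats with 2 chosen after the data were seen, Herpud1 (0.92 ± 0.27) and Trib3 (1.74 ± 0.69) kept an unadjusted p under 0.05, whereas Atf4 (0.49 ± 0.28) and Sdf2l1 (-1.02 ± 0.51) did not. Enterocyte markers within goblet-like nuclei summed to 1081 to 3053 CPM in CON and 2148 to 4613 CPM in SAP, and neutrophil markers reached 131.6 CPM in SAP replicate 1 against 7.85 to 18.6 CPM in CON. Markers of transit-amplifying cells summed to 501.1 to 726.9 CPM in CON and 103.6 to 451.1 CPM in SAP, without overlap. The part of these markers in the Trib3, Herpud1, Atf4 and Sdf2l1 levels was not tested.

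**Figure D2:**
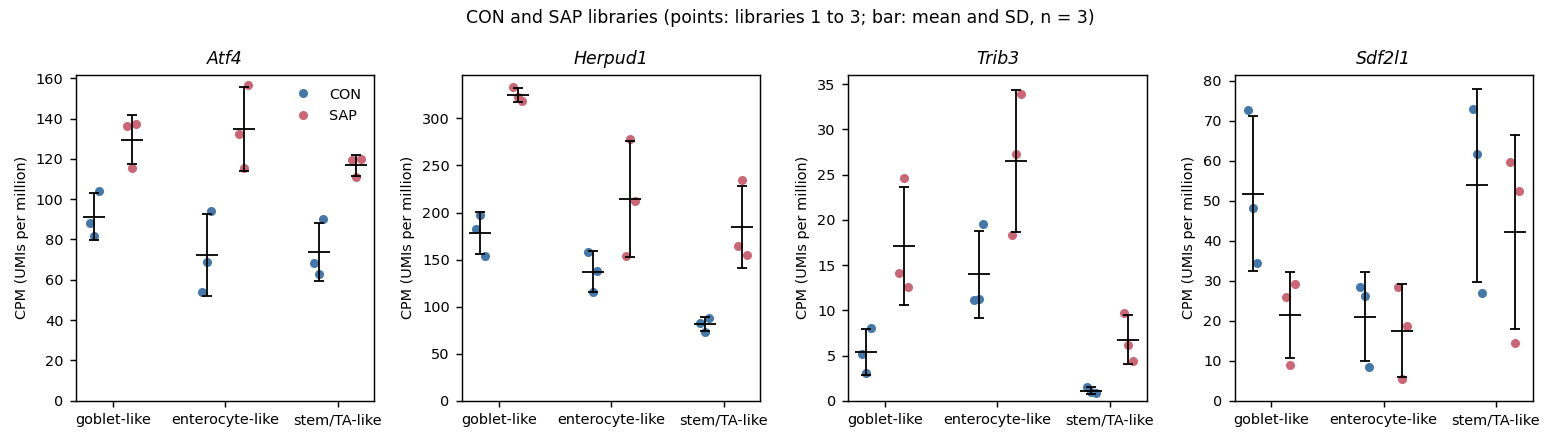
Level of Atf4, Herpud1, Trib3 and Sdf2l1 by library, in CPM, for CON and SAP in goblet-like, enterocyte-like and stem/TA-like nuclei, with each point 1 rat and the bar the group mean and SD (n = 3). Atf4 lies higher in SAP without overlap in all 3 classes, and Herpud1 does so in goblet-like (153.6 to 197.6 against 318.6 to 333.6 CPM) and stem/TA-like nuclei.

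In enterocyte-like nuclei, Atf4 showed the clearest separation. It was 54.0, 68.8 and 94.1 CPM in CON and 132, 116 and 157 CPM in SAP, without overlap (0.89 ± 0.25, edgeR adjusted p = 0.823). Over 16 alternatives the Atf4 fold change ran from 0.559 to 1.04. This class joins 3 clusters, whose shares differed between libraries. The largest number of enterocyte-like nuclei lay in cluster 5, led by Slc5a12 and Slc2a2, in CON replicates 2 and 3 and SAP replicate 2, in cluster 6, led by Ly6m, Apoa4 and Samd9, in SAP replicates 1 and 3, and in cluster 10, led by Fabp6, in CON replicate 1. Within cluster 5, Atf4 was 61.9 to 63.4 CPM in CON and 105.5 to 110.8 CPM in SAP, and within cluster 6 it was 70.75 to 113.6 CPM and 120.3 to 183 CPM. Within cluster 10 the groups overlapped, at 41.3, 100.8 and 110.5 CPM in CON and 106.6, 117.6 and 169.1 CPM in SAP, where CON replicate 2 held 28 nuclei. Transit-amplifying markers within the class summed to 178.1 to 481.5 CPM in CON and 67.95 to 149.6 CPM in SAP, without overlap, and their part in the Atf4 difference was not tested.

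Trib3 was 11.2, 11.3 and 19.5 CPM in enterocyte-like nuclei of CON and 18.3, 27.3 and 34.0 CPM in SAP, with 1 SAP library inside the CON range (0.85 ± 0.34, edgeR adjusted p = 0.829). Herpud1 was 158, 115 and 138 CPM in CON and 154, 278 and 212 CPM in SAP. SAP replicate 1 lay within the CON range, and the fold change of 0.54 ± 0.34 had an edgeR adjusted p of 0.866. Without both replicate 1 libraries the Herpud1 value was 1.07 ± 0.33, with an unadjusted p under 0.05.

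The other members gave no separation in enterocyte-like nuclei. Hspa5 was 659, 156 and 230 CPM in CON and 469, 225 and 390 CPM in SAP, and its fold change moved from -0.17 ± 0.69 to 1.11 when CON replicate 1 was left out. Xbp1 (0.18 ± 0.38), Ern1 (0.17 ± 0.28), Ern2 (-0.21 ± 0.46), Ddit3 (-0.07 ± 0.33), Dnajb9 (-0.56 ± 0.63) and Sdf2l1 (-0.41 ± 0.75) all overlapped between groups, and for each of them leaving out 1 library turned the sign. In all, 2 of 10 members had an unadjusted p under 0.05 (5.97% of 12390 genes) and 1, Atf4, had all SAP libraries above all CON libraries (3.61% of genes). edgeR called 0 genes in this class (0%), with 740 at an unadjusted p under 0.05, and DESeq2 called 26, no member among them.

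In stem/TA-like nuclei, the same 3 genes stood apart. Herpud1 was 82.7, 73.4 and 87.8 CPM in CON and 164, 234 and 155 CPM in SAP (1.16 ± 0.23, edgeR adjusted p = 0.280), and DESeq2 gave 1.18 with an adjusted p of 0.00626. Trib3 was 1.54, 0.932 and 0.839 CPM in CON against 9.73, 6.16 and 4.41 CPM in SAP, from 34 UMIs in all (2.45 ± 0.68, edgeR adjusted p = 0.489). Atf4 was 68.2, 63.1 and 90.3 CPM in CON against 119.5, 110.9 and 120 CPM in SAP (0.65 ± 0.20, edgeR adjusted p = 0.550).

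These 3 of 10 members had an unadjusted p under 0.05 in stem/TA-like nuclei, against 7.62% of 13011 genes, and the same 3 had all SAP libraries above all CON libraries, against 6.53% of genes. Trib3 passed the filter on counts in this class only through the SAP libraries, so its separation is not independent of that selection. edgeR called 1 gene of the class (0.00769%), edgeR with the replicate number as a block 18, and DESeq2 83 (0.638%), and no member was called with the block. Enterocyte markers within these nuclei summed to 1092 to 2115 CPM in CON and 1707 to 3474 CPM in SAP, and the groups overlapped. Transit-amplifying markers did not overlap, at 1277 to 1296 CPM in CON and 494.8 to 1244 CPM in SAP, and neutrophil markers were 283.6 CPM in SAP replicate 1 against 5.36 to 19.4 CPM in CON. The part of these markers in the 3 differences was not tested. Without both replicate 1 libraries, Herpud1 (1.27 ± 0.33) and Trib3 (2.40 ± 0.92) kept an unadjusted p under 0.05 and Atf4 (0.59 ± 0.31) did not.

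In cluster 1, the fold change of Herpud1 was the highest of the 15 classes in which it was tested. Herpud1 was 130, 78.9 and 132 CPM in CON and 268, 286 and 277 CPM in SAP (1.33 ± 0.25, edgeR adjusted p = 0.177). Trib3 was 5.61, 3.03 and 7.01 CPM in CON and 22.5, 31.1 and 23.0 CPM in SAP (2.32 ± 0.41, edgeR adjusted p = 0.176). DESeq2, which called 1.55% of genes in this cluster, gave adjusted p of 0.00147 for Herpud1 and 0.00126 for Trib3. Leaving out SAP replicate 3 brought Trib3 past the edgeR limit as well (adjusted p = 0.0482). That fit called 118 of 11957 genes (0.987%), against 1 in the main fit. No member was called by edgeR when any other single library was left out.

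In cluster 8, Trib3 was 9.47, 6.87 and 13.9 CPM in CON and 67.1, 64.5 and 33.7 CPM in SAP (2.30 ± 0.49, edgeR adjusted p = 0.274, DESeq2 adjusted p = 0.0222). Trib3 passed the filter on counts there only through the SAP libraries, so its separation is not independent of that selection. Herpud1 was also without overlap there (0.55 ± 0.20, edgeR adjusted p = 0.475). Atf4 did not follow in this cluster: its fold change was -0.08 ± 0.30, the 1 value below 0 among the 14 classes in which it was tested. In cluster 4, Atf4 (0.98 ± 0.25) and Herpud1 (0.94 ± 0.23) were higher in all 3 SAP libraries. All SAP libraries lay above all CON libraries for 6.28% of genes tested in cluster 8 and 3.77% in cluster 4. Stem cell markers in cluster 4 summed to 1871 to 2686 CPM in CON and 1352 to 1853 CPM in SAP, and transit-amplifying markers to 733.7 to 1194 CPM and 276.9 to 724.2 CPM, both without overlap, and their part in these values was not tested.

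Outside the epithelium, Atf4 was the most widely shifted member. In SMC-like nuclei it was 65.3, 48.7 and 89.8 CPM in CON and 158, 176 and 158 CPM in SAP (1.26 ± 0.29, edgeR adjusted p = 0.112, DESeq2 adjusted p = 0.047). The same class was the only 1 of the 16 in which Hspa5 was without overlap, at 213.8, 165.6 and 218.1 CPM in CON and 464, 273 and 388 CPM in SAP (0.94 ± 0.30, edgeR adjusted p = 0.234). Herpud1 (0.97 ± 0.29) and Xbp1 (0.79 ± 0.30) were also higher in all 3 SAP libraries there. These were 4 of the 7 members tested in the class. Of its 9230 genes tested, 7.97% had all SAP libraries above all CON libraries and 9.91% all below. Markers in this class also differed between the groups: its own SMC markers summed to 7214 to 16150 CPM in CON and 2041 to 5693 CPM in SAP, and neutrophil markers (1 of 7 at 0) to 6.49 to 26.4 CPM in CON and 115.4 to 1232 CPM in SAP, both without overlap. The part of these markers in the SMC-like values was not tested. Xbp1 was without overlap in 1 further class, endothelial-like nuclei, with 114.5, 68.8 and 87.3 CPM in CON and 218, 157 and 159.6 CPM in SAP (0.90 ± 0.35, edgeR adjusted p = 0.931).

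T-like nuclei had Herpud1 at 1.04 ± 0.24, Atf4 at 0.88 ± 0.31 and Trib3 at 1.04 ± 0.55 on the log2 scale, all without overlap. In fibroblast-like nuclei this was so for Atf4 (0.96 ± 0.37) and Ern1 (0.53 ± 0.32), in macrophage-like nuclei for Atf4 (0.84 ± 0.35) and Herpud1 (0.58 ± 0.33), in endothelial-like nuclei also for Atf4 (0.74 ± 0.32) and Herpud1 (0.68 ± 0.31), in enteroendocrine-like nuclei for Herpud1 (1.24 ± 0.34) and Atf4 (0.72 ± 0.33), and in cluster 13 for Atf4 (0.82 ± 0.45). Tuft-like nuclei (0.70 ± 0.30) and cluster 13 (0.79 ± 0.36) had a Herpud1 value with an unadjusted p under 0.05 but overlapping groups. None of these passed the adjusted limit by edgeR. Of all genes tested, 4.49% in T-like, 4.78% in fibroblast-like, 3.91% in macrophage-like and 4.28% in endothelial-like nuclei were higher in SAP without overlap. In enteroendocrine-like nuclei this share was 4.73% and in cluster 13 4.49%.

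Counted over classes, Atf4 was without overlap and higher in SAP in 12 of 14 classes, Herpud1 in 10 of 15 and Trib3 in 5 of 6, against 5.13% of all gene and class pairs. Xbp1 reached this in 2 of 16 classes, Hspa5 and Ern1 in 1 each, and Ern2, Ddit3, Dnajb9 and Sdf2l1 in 0. Trib3 had too few UMIs to test in the other classes. In stem/TA-like nuclei and cluster 8 it passed the filter on counts only through the SAP libraries. Its lack of overlap in these 2 classes thus followed from the filter and carries no weight. In goblet-like nuclei the lack of overlap of Trib3 is not independent of the filter either. The fold change of Sdf2l1 was below 0 in 8 of 9 classes and that of Ern2 in 6 of 7. Classes of 1 rat share its library and its free RNA, so they are not independent repeats. With 3 rats in each group, an exact permutation test of a single gene cannot go below a two-sided p of 0.1.

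**Figure D3:**
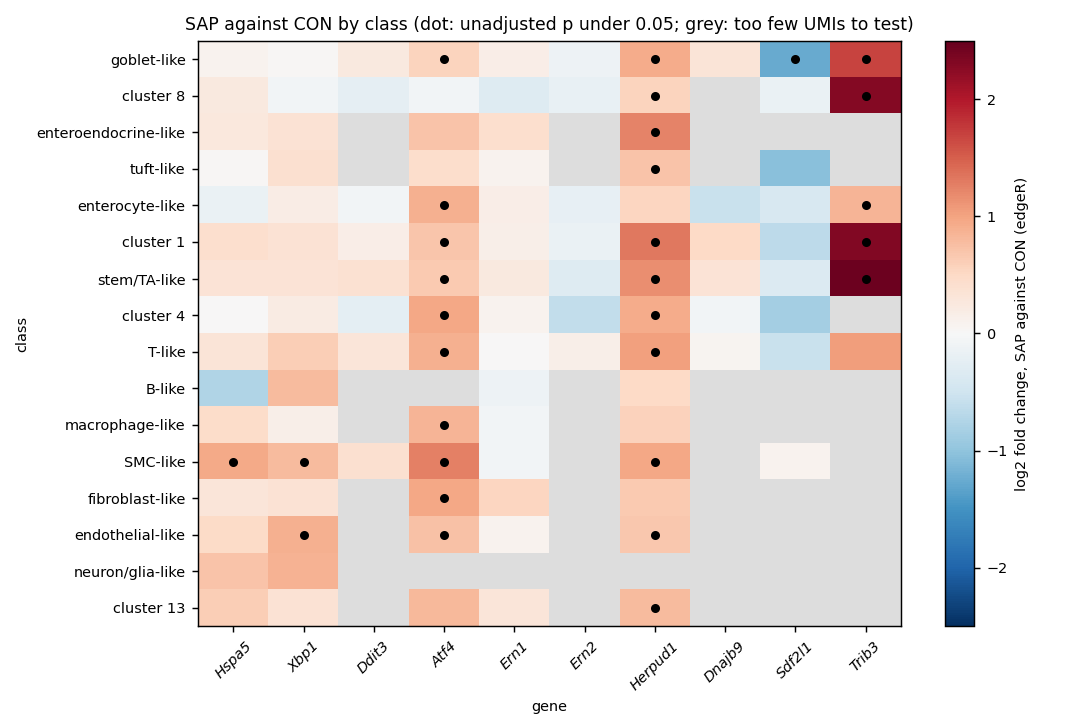
Log2 fold change of SAP over CON from edgeR for each member in each tested class, with colour giving the size and direction, dots an unadjusted p under 0.05 and grey too few UMIs to test. Herpud1, Atf4 and Trib3 are above 0 in nearly all classes in which each was tested (median 0.79, 0.78 and 1.99), while Sdf2l1 is below 0 in most (median -0.55).

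Over all epithelial nuclei pooled, Trib3 (1.87 ± 0.43), Herpud1 (0.91 ± 0.26) and Atf4 (0.58 ± 0.23) were the members without overlap, with edgeR adjusted p of 0.370, 0.370 and 0.406. All SAP libraries lay above all CON libraries for 5.55% of the 17070 genes tested. DESeq2 called Trib3 (1.90, adjusted p = 0.00475), among 333 genes called (1.95%). Sums over all epithelium also move with the share of each class, and the number of enterocyte-like nuclei in SAP replicate 2 (2457) was far above that in the other libraries (430 to 961).

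Whether the SAP difference itself differed between goblet-like and enterocyte-like nuclei was tested as an interaction over both classes. edgeR called 0 of 12659 genes (0%), with 589 at an unadjusted p under 0.05, and DESeq2 called 0. Sdf2l1 had the smallest p of the members, with a difference of -0.90 ± 0.39 (goblet-like minus enterocyte-like log2 fold change, edgeR adjusted p = 1). Herpud1 (0.33 ± 0.29), Trib3 (0.69 ± 0.47), Atf4 (-0.36 ± 0.23), Dnajb9 (0.81 ± 0.61) and Hspa5 (-0.15 ± 0.33) had an adjusted p of 1.

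The wider response lists, chosen with earlier results of these data known, differed in direction. Over all 11494 genes tested in goblet-like nuclei, 5870 had a fold change above 0, and 609 of these had an unadjusted edgeR p under 0.05. In goblet-like nuclei, 18 of 22 genes of the PERK-ATF4 branch had a fold change above 0 (median 0.46, 4 with an unadjusted p under 0.05, all higher), against a median of 0.01 over all genes tested. ER chaperones and folding enzymes lay on the other side, with 17 of 21 below 0 (median -0.18, 0 with an unadjusted p under 0.05), as did translocation and export genes, with 12 of 18 below 0 (median -0.22). Genes of ER-associated degradation (9 of 15 above 0, median 0.02) and other sensors (5 of 11 above 0, median -0.03) were near 0. The chaperone genes named below, Agr2 (3673 CPM) and Pdia3 (665.3 CPM), had their highest goblet-like level in CON replicate 1. List values in every class used all 6 libraries, and their dependence on the replicate 1 libraries rich in Paneth markers was not tested.

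Enterocyte-like nuclei gave the same split, with 17 of 20 PERK-ATF4 genes above 0 (median 0.77, 7 with an unadjusted p under 0.05) and 18 of 21 chaperones below 0 (median -0.38, 1 with an unadjusted p under 0.05). In stem/TA-like nuclei, 20 of 22 PERK-ATF4 genes were above 0 (median 0.45, 7 with an unadjusted p under 0.05), while chaperones were more even, with 14 of 21 below 0 (median -0.07). In SMC-like nuclei both lists lay above 0, with 13 of 14 PERK-ATF4 genes (median 0.60) and 17 of 21 chaperones (median 0.37), in the class where neutrophil markers were higher and SMC markers lower in SAP without overlap. Over all genes tested, 6095 of 12390 were above 0 in enterocyte-like, 6620 of 13011 in stem/TA-like and 4511 of 9230 in SMC-like nuclei. Of these, 305, 511 and 506 had an unadjusted edgeR p under 0.05.

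**Figure D4:**
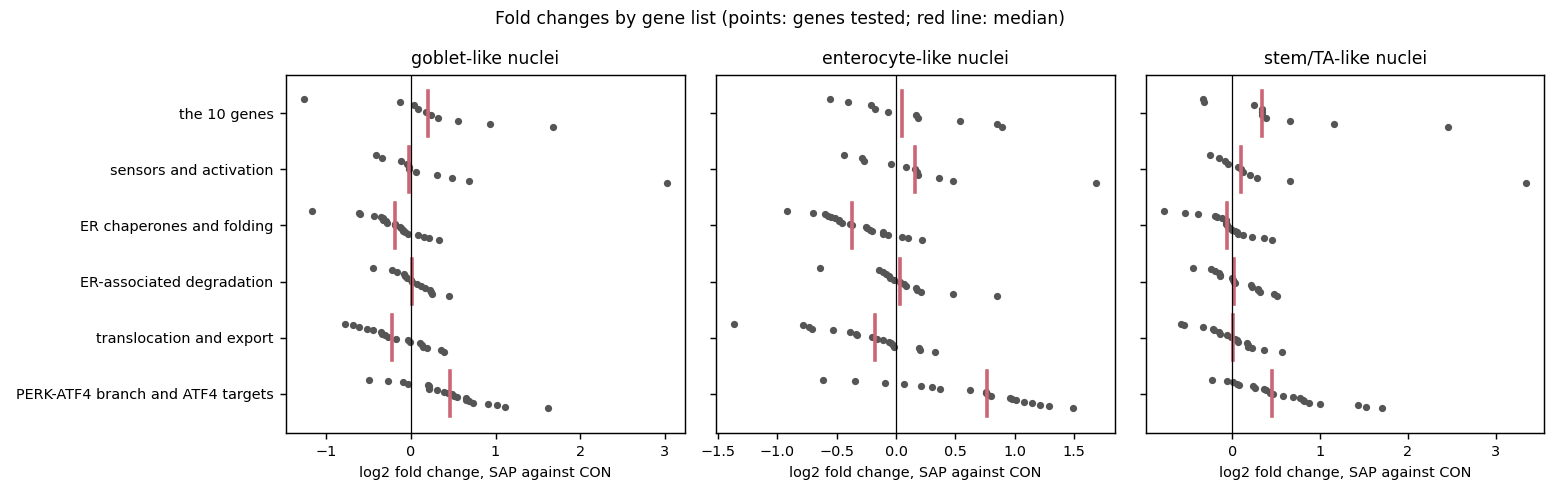
Log2 fold changes of SAP over CON for the 10 members and the genes of each wider list in goblet-like, enterocyte-like and stem/TA-like nuclei, with 1 point per gene and the median marked. The PERK-ATF4 list has medians of 0.46, 0.77 and 0.45, and the chaperone list medians of -0.18, -0.38 and -0.07.

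The 1 gene of the wider lists that passed the edgeR test in any class was Cebpb in SMC-like nuclei. This factor pairs with ATF4 and CHOP, and it is also induced by inflammatory cytokines. Its level was 13.9, 16.2 and 53.6 CPM in CON and 305, 182 and 270.0 CPM in SAP (3.06 ± 0.47, edgeR adjusted p = 0.0369). Most CON libraries lay below the limit of the filter on counts in this class and all SAP libraries above it. The Cebpb call is therefore not independent of that selection. Neutrophil markers in the same nuclei were 6.49 to 26.4 CPM in CON and 115.4 to 1232 CPM in SAP, SMC markers 7214 to 16150 and 2041 to 5693 CPM, and their part in the Cebpb level was not tested. The 10 genes named for their level in goblet-like nuclei, 2 per list, all overlapped between groups there: Eif2ak3 was -0.03 ± 0.23, Creb3l1 -0.03 ± 0.27, the disulphide isomerase Pdia3 -0.09 ± 0.32, the ubiquitin ligase Syvn1 0.08 ± 0.25, the coat protein Sec24d -0.03 ± 0.20, the translocon subunit Ssr3 0.14 ± 0.30, the antioxidant factor Nfe2l2 0.20 ± 0.19 and the glycyl-tRNA synthetase Gars1 0.21 ± 0.23. Selenos, a degradation component, was at -0.45 ± 0.35. Agr2, with the highest level of the 10, was at -1.17 ± 0.90, with 3673, 1410 and 480 CPM in CON and 1598, 253 and 548 CPM in SAP. Its range within each group was wider than the difference between the group means.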

How the data were processed

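Libraries of nuclei from 6 ilea were prepared on a DNBelab C system and sequenced on a DNBSEQ instrument. The authors made the deposited files with dnbc4tools, as whole UMI counts per gene and barcode on the rat genome (mRatBN7.2, with Seurat 4.3.0 named in the submitters' processing notes). The deposited counts were not normalized. The limits of the study's methods were then applied to each barcode: no fewer than 1200 UMIs, no fewer than 500 genes, and a mitochondrial share of 5% or less. Nuclei were clustered on 2000 variable genes, with the members and wider lists kept out, by principal components, a correction between libraries written after the Harmony method and leidenalg 0.10.2 (resolution 0.8). A cluster was named where its markers had a mean log2 ratio of at least 0.5 and led the next class by 0.9, a lead set after the clusters were seen. By simulated doublets, the top 5% of nuclei per library were marked (2048) and kept in the main results. Counts were summed per library and class, and 1 rat was 1 replicate.

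SAP was compared with CON with edgeR 4.0.16 (TMM scaling, filterByExpr, robust quasi-likelihood test) and, as an alternative, DESeq2 1.42.0. The standard error of an edgeR fold change is its size divided by the square root of F, and Benjamini-Hochberg adjustment ran over all genes of a class. Class levels are CPM, and ratios between classes use log2(CPM + 1). On simulated counts of the goblet-like comparison (11541 genes), edgeR recovered 36.7% of 2-fold and 96.9% of 4-fold changes (log2 changes of 1 and 2). These counts had the same spread between rats for every gene and no difference between replicate numbers. Only better measured genes were changed, so the shares do not carry over to the real libraries. Median mitochondrial shares were 0.125% to 0.700% in CON and 0.387% to 1.84% in SAP.

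The members and lists were chosen with earlier results of these data known. All 10 members are named. Of the wider lists, genes called and the 2 highest in goblet-like nuclei per list are named, and for Hspa5, Xbp1 and Ern2 the 3 genes with the most similar class profile, of which 1 is not reported here. Of 93 listed wider genes, 92 were in the tables. Same-numbered CON and SAP libraries deviated together from their group means over all nuclei (r = 0.668, 0.241 and 0.354 over 12287 genes). Pairs of unlike number ran from -0.586 to 0.0499 there. In goblet-like nuclei the same-numbered pairs gave 0.655, 0.134 and 0.276. CON replicate 3 with SAP replicate 2 gave 0.331 in that class, so only the replicate 1 pair stood out in it. The numbers were treated as pairing the libraries in an alternative fit with a replicate block. The labels do not say what the numbers share. Alternatives were another tool, scaling, gene filter, mitochondrial limit, resolution, doublets left out, depth class, replicate block and each library left out.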

Additional observations from a re-analysis of the deposited data

How the results depend on the processing

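Fold changes were recomputed for all members in goblet-like and enterocyte-like nuclei. In other classes, only members with an unadjusted edgeR p under 0.05 or groups without overlap were included. Of these 853 values under the alternatives, 804 kept their sign and their side of the threshold, 32 turned and 17 passed it. All that turned were in goblet-like and enterocyte-like nuclei. Members left out turned too: Ern1 in T-like nuclei kept its sign in 8 of 15 alternatives and Hspa5 in cluster 4 in 9 of 15. Of 283 counts of members called, 269 stayed at 0. Members called were 1 with DESeq2 in goblet-like, stem/TA-like, SMC-like, cluster 8, all epithelial and all nuclei, and 2 in cluster 1. DESeq2 called 1.95% of all genes tested over all epithelial nuclei, 1.12% over all nuclei, 1.55% in cluster 1 and 0.252% in cluster 8. With every gene of at least 1 count, members called were 2 in goblet-like nuclei and cluster 1 and 1 in stem/TA-like, SMC-like and cluster 8 nuclei, and with library totals alone 1 in cluster 8. Of all genes, at least 1 count called 1.1% in cluster 1 and 0.821% in cluster 8, and library totals alone 0.132% in cluster 8. The shares of all genes called in SMC-like nuclei under these settings are not reported here. Without 1 library, members called were 0 to 1 in cluster 1. Genes called were 81 (DESeq2), 396 (at least 1 count) and 9 (replicate block) in goblet-like nuclei, 83, 100 and 18 in stem/TA-like nuclei, and 26, 144 and 0 in enterocyte-like nuclei, where library totals alone gave 5 and a 1% mitochondrial limit 1. Leaving out both replicate 1 libraries, an alternative chosen after seeing the data, gave 0 in goblet-like and stem/TA-like nuclei. Without 1 library, genes called ran from 1 to 12 (goblet-like, highest without CON replicate 3, and 6 without SAP replicate 3), 0 to 2 (enterocyte-like) and 0 to 4 (stem/TA-like, 0 without SAP replicate 1). The test of the difference between classes gave 63 genes with at least 1 count, and 0 to 1 without 1 library. The causes were not tested.

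Among the values included, signs turned as follows. In enterocyte-like nuclei, Hspa5 was 0.0503 with library totals, 0.253 with the replicate block, 0.0402 at resolution 0.4 and 0.756 without both replicate 1 libraries. At the 1% mitochondrial limit Xbp1 was -0.121 and Ern2 0.123 there, and Hspa5 was -0.0619 in goblet-like nuclei. Ddit3 was 0.0266 at resolution 0.4. Without both replicate 1 libraries, Ern1 was -0.0621 and Ern2 0.013 in enterocyte-like nuclei, and Xbp1 -0.121 and Ddit3 -0.00619 in goblet-like nuclei. Goblet-like Xbp1 was -0.0315 with library totals and -0.0352 with at least 1 count. The difference between the classes was 0.0171 (DESeq2) and 0.0257 (RLE scaling) for Ern1, and 0.0653 (DESeq2) and 0.00749 (replicate block) for Ern2. Leaving out 1 library moved goblet-like Hspa5 from -0.269 to 0.656, Xbp1 from -0.199 to 0.27 and Ern2 from -0.232 to 0.0853. In enterocyte-like nuclei it moved Hspa5 from -0.611 to 1.11, Xbp1 from -0.0926 to 0.545, Ddit3 from -0.433 to 0.14, Dnajb9 from -0.96 to 0.111, Ern1 from -0.034 to 0.383, Ern2 from -0.451 to 0.0589 and Sdf2l1 from -1.06 to 0.317. The difference between classes moved from -0.22 to 0.165 (Ern1), -0.295 to 0.145 (Ern2), -0.532 to 0.228 (Hspa5) and -0.384 to 0.0559 (Xbp1). The replicate block changed no call of a member. It moved genes called from 2 to 14 in cluster 8, from 1 to 5 in B-like nuclei and from 1 to 2 in clusters 1 and 4 and enteroendocrine-like nuclei. With the 1% mitochondrial limit, the log2 ratio of goblet-like to enterocyte-like levels was -1.52 in place of -0.94 for Trib3, 1.13 in place of 0.84 for Xbp1, 0.488 in place of 0.155 for Atf4 and 1.06 in place of 0.187 for Dnajb9, each in the same direction. Herpud1, Trib3 and Atf4 were above 0 under all 16 alternatives in goblet-like, enterocyte-like and stem/TA-like nuclei. Trib3 rests on 76 (goblet-like) and 34 (stem/TA-like) UMIs, which limits its precision.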

Other observations

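Within the PERK-ATF4 list, Cebpb, Ddit4 and Ppp1r15a had an unadjusted edgeR p under 0.05 in goblet-like, enterocyte-like and stem/TA-like nuclei alike, and they are named here after their values were seen. Ppp1r15a, which encodes GADD34, the phosphatase subunit that restores translation, had log2 fold changes of 1.11 ± 0.48, 1.08 ± 0.47 and 1.43 ± 0.53 in these classes, with edgeR adjusted p of 0.493, 0.829 and 0.610. Ddit4, an inhibitor of mTORC1 signalling, had 0.73 ± 0.32, 1.15 ± 0.27 and 0.87 ± 0.35. Cebpb had 1.02 ± 0.33, 1.01 ± 0.36 and 1.00 ± 0.25. None passed the adjusted limit.

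Creb3l3, a membrane-bound factor of the liver and gut that is cleaved under ER stress, was likewise picked out with its values known. Among goblet-like nuclei it was 4.19, 1.21 and 35.4 CPM in CON and 98.7, 124 and 93.4 CPM in SAP (3.02 ± 0.87, edgeR adjusted p = 0.383), and in stem/TA-like nuclei 2.64, 2.80 and 15.7 CPM in CON and 68.1, 107 and 38.4 CPM in SAP (3.35 ± 0.74, edgeR adjusted p = 0.413). It was more abundant in enterocyte-like nuclei, with 70.2, 12.5 and 285 CPM in CON and 538, 238 and 400.3 CPM in SAP, where the groups overlapped (1.69 ± 0.87, edgeR adjusted p = 0.847). Enterocyte-like nuclei hold far more of this gene than the other classes, and the part of free RNA in the goblet-like and stem/TA-like values was not tested. In goblet-like and stem/TA-like nuclei most CON libraries lay below the limit of the filter on counts and all SAP libraries above it. The Creb3l3 fold changes and p there are not independent of that selection.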
